A study of Homo sapiens with 7 samples.

Results

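Of the 16948 places in the genome where CTCF loops were anchored in wild-type HEC-1-B cells, 6663 (39.3%, 95% interval 38.6 to 40.0) also lay at an anchor of a RAD21 loop and lay away from every anchor of a ZNF143 loop. These 6663 regions, called CTCF-RAD21 anchors here, are the subject of what follows. They were found by merging overlapping anchors of the wild-type CTCF loop list and keeping those with a gap of at most 5 kb to a wild-type RAD21 anchor and of more than 5 kb to every wild-type ZNF143 anchor. The remaining CTCF anchors were 4897 triple anchors, which had both a RAD21 and a ZNF143 anchor within 5 kb, 4316 CTCF-alone anchors, which had neither, and 1072 anchors with ZNF143 and without RAD21.

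CTCF is a zinc-finger protein that binds DNA and halts cohesin, a ring-shaped complex that includes RAD21. Cohesin is known to reel in chromatin and so to draw out loops, which are often held where CTCF is bound in convergent orientation. ZNF143 is another zinc-finger protein, known for binding at promoters, and it has been found close to many CTCF and cohesin sites.

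The data were HiChIP loop lists. In HiChIP, DNA ends that lie near each other in fixed nuclei are ligated, chromatin bound by a protein is pulled down with an antibody, and read pairs joining distant sites are counted. HEC-1-B is a human uterine adenocarcinoma cell line. There was 1 library for each of 7 groups: wild-type cells with an antibody to ZNF143, CTCF or RAD21, cells of genotype ZNF143KO with an antibody to CTCF or RAD21, and CTCF-AID cells with an antibody to ZNF143 at 0 h and at 24 h of auxin (IAA). The AID tag on CTCF in these cells lets auxin trigger the breakdown of the protein. The labels do not say whether the ZNF143KO and CTCF-AID cells were single clones. Each group being a single library, there is no replicate check and no p-value is given. The 95% intervals cover counting error in these libraries only. Neighbouring loops share anchors and are not independent, so the true error is larger.

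The lists held 10804 to 40405 loops with total counts of 33460 to 143119, which are sums over listed loops and not sequencing depths. For the comparison of genotypes, the total count was 80726 for wild-type CTCF against 46220 in ZNF143KO cells, and 74410 for wild-type RAD21 against 33460. A loop with fewer than 2 counts is not listed, so a loop or anchor that was not found may lie below that limit. The ZNF143KO lists and the wild-type ZNF143 list had 7 columns, and the wild-type CTCF and RAD21 lists 8, so how the lists were made and the genotype cannot be told apart. This also touches the comparison of kinds of anchor, since triple anchors are those near an anchor of a list with 7 columns. Its part in their shares in the ZNF143KO lists was not tested. The CTCF-AID lists had 8 columns, so they also differ in form from the wild-type ZNF143 list that the rule used.

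The CTCF-RAD21 anchors were narrow regions, from 1061 to 9309 bp wide with a median of 1835 bp, against 1842 bp for triple anchors. In the wild-type CTCF list 3173 of them (47.6%) had a single loop, close to the 51.2% of all CTCF anchors. The median was 2 loops and the highest 17, whereas triple anchors had a median of 3 and a highest of 27, and CTCF-alone anchors a median of 1. The summed CTCF count of an anchor had a median of 5 (quartiles 3 and 10, highest 196) at CTCF-RAD21 anchors, 9 (4 and 21, highest 556) at triple anchors and 2 (2 and 4, highest 34) at CTCF-alone anchors. On both measures the CTCF-RAD21 anchors thus stood between the other kinds of anchor, and over all 16948 anchors the median summed count was 4. Their summed wild-type RAD21 count was much like the CTCF count, with a median of 5 and a highest of 280.

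The match to RAD21 that the rule asks for was usually closer than 5 kb. Of the 6663 anchors, 6351 (95.3%) overlapped a RAD21 anchor, and 5301 (79.6%) had the same start and end as one, so the lists share many of their anchor intervals. The gap to the nearest wild-type ZNF143 anchor had a median of 176.8 kb, with quartiles of 45.4 and 622.4 kb and a highest value of 16.45 Mb. Few anchors lay near the limit of the rule, since 359 had a gap of 5 to 10 kb. The members closest to that limit were at chromosome 1, 10009104 to 10011635 (gap 5015 bp, 1 CTCF loop with a count of 5), and chromosome 22, 43017088 to 43018759 (gap 5020 bp, 3 loops with a summed count of 6). Just inside the limit, and so counted as triple anchors, were chromosome 5, 140213474 to 140215857 (gap 4996 bp, 1 loop with a count of 2), and chromosome 8, 124467122 to 124469544 (gap 4981 bp, 2 loops with a summed count of 4). Positions here and below are in hg19, counted from 1. No sequence or gene annotation of that build was used here, so regions are given by position and not by gene.

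The name "without ZNF143" held for the wild-type ZNF143 list only. In CTCF-AID cells without auxin, a library the rule did not use, 3427 of the 6663 CTCF-RAD21 anchors (51.4%, 50.2 to 52.6) had a ZNF143 loop anchor within 5 kb, against 57.5% of all CTCF anchors. The share was 85.7% (84.7 to 86.7) for triple anchors and 29.5% (28.2 to 30.9) for CTCF-alone anchors. The CTCF-AID list at 0 h was the longest of the 7, with 40405 loops against 11981 in the wild-type ZNF143 list, and 89.5% of its counts were even, against 69.1% there, so counts in these lists may have different scales. With loops of at least 4 counts only, an alternative chosen after seeing the data, the share of CTCF-RAD21 anchors at a ZNF143 anchor was 17.9% (17.0 to 18.9) at 0 h, and with at least 3 counts in all lists it was 33.7% (32.4 to 35.0). After 24 h of auxin 994 of the 6663 anchors (14.9%, 14.1 to 15.8) were at a ZNF143 anchor, against 24.2% of all CTCF anchors, and the share was 4.74% (4.26 to 5.28) with at least 4 counts and 9.91% (9.11 to 10.8) with at least 3. Shares over all CTCF anchors were not computed at these higher minimum counts. Of the 3236 anchors with no ZNF143 anchor at 0 h, 2.84% (2.32 to 3.47) had one at 24 h. Triple anchors had a share of 44.9% (43.5 to 46.3) at 24 h. ZNF143 loops were thus listed less often at CTCF-RAD21 anchors than at triple anchors in both CTCF-AID libraries, with differences of -34.3 percentage points (-35.8 to -32.7) at 0 h and -30.0 points (-31.6 to -28.4) at 24 h. Within 5 classes of summed CTCF count (2, 3 to 4, 5 to 9, 10 to 19, and 20 or more) these were -31.9 points (-33.6 to -30.2) and -27.9 points (-29.7 to -26.1). The rule favours this direction, since triple anchors had to have a wild-type ZNF143 anchor and CTCF-RAD21 anchors had to lack one. Against CTCF-alone anchors the 24 h difference was 5.51 points (4.28 to 6.72), and within the count classes it was 0.827 points with an interval of -2.06 to 3.71 that includes 0.

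**Figure D1:**
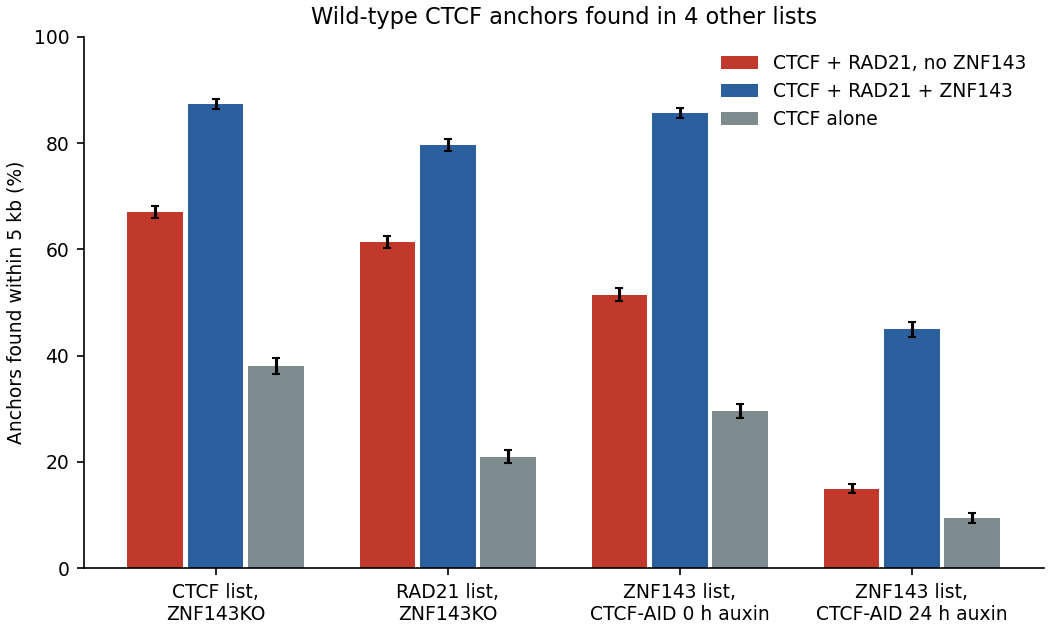
Share of wild-type CTCF anchors, in percent, with an anchor of another list within 5 kb, for CTCF-RAD21 anchors (red, 6663), triple anchors (blue, 4897) and CTCF-alone anchors (grey, 4316). Bars start at 0 and lines are 95% Wilson intervals. In each of the 4 lists the red bar stands between the blue and the grey one, and in the ZNF143 list after 24 h of auxin it is closest to the grey one, at 14.9% against 9.41%.

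Most CTCF-RAD21 anchors were still loop anchors in cells lacking ZNF143. In the ZNF143KO CTCF list 4464 of the 6663 (67.0%, 65.9 to 68.1) were found, against 64.7% of all wild-type CTCF anchors, and in the ZNF143KO RAD21 list 4091 (61.4%, 60.2 to 62.6) were found, against 54.8% of all. These shares lay close to or above those of all anchors, and below those of triple anchors, whose share was 87.4% (86.4 to 88.3) in the CTCF list and 79.7% (78.6 to 80.8) in the RAD21 list. The difference from triple anchors was -20.4 points (-21.9 to -18.9) in the CTCF list. In the RAD21 list it was -18.3 points (-19.9 to -16.7). From CTCF-alone anchors, of which 38.0% and 20.9% were found, it was 28.9 points (27.1 to 30.8) and 40.4 points (38.8 to 42.1) in the other direction, and within the count classes 15.4 points (12.3 to 18.5) and 32.2 points (28.8 to 35.6). RAD21 in wild-type cells was part of the rule that sets these kinds of anchor apart. Of the CTCF-RAD21 anchors, 3137 (47.1%) were found in both ZNF143KO lists, 1327 (19.9%) in the CTCF list alone, 954 (14.3%) in the RAD21 list alone and 1245 (18.7%) in neither. Of all CTCF anchors 44.2% were found in both, 20.6% in the CTCF list alone, 10.6% in the RAD21 list alone and 24.7% in neither. Of the triple anchors 73.3% were found in both and 6.25% in neither.

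Whether an anchor was found again moved with its wild-type count. Of the 1636 CTCF-RAD21 anchors with a summed CTCF count of 2, 48.1% (45.7 to 50.5) were found in the ZNF143KO CTCF list, and the share was 71.1% (69.0 to 73.1) at a count of 5 to 9 and 97.5% (95.8 to 98.5) at 20 or more. All wild-type CTCF anchors had shares of 42.6%, 72.4% and 98.4% in these classes, so the rise with count was that of the list as a whole. Only 557 anchors reached a count of 20. Triple anchors had shares of 70.5% (66.9 to 73.9), 84.3% (82.2 to 86.3) and 99.2% (98.5 to 99.5) in the same classes, so the gap between the kinds of anchor was widest among the weakest anchors and small among the strongest. With both kinds weighted to the count classes of the CTCF-RAD21 anchors, the difference was -14.8 points (-16.5 to -13.1) in the CTCF list and -11.1 points (-12.9 to -9.22) in the RAD21 list. Part of the raw difference thus went with the count of the anchor and part remained within these classes. The classes match the CTCF count coarsely and do not match the RAD21 count, whose median was 8 at triple and 5 at CTCF-RAD21 anchors. Triple anchors also had to be anchors in the wild-type ZNF143 library. The part of that selection in the remaining difference was not tested.

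**Figure D2:**
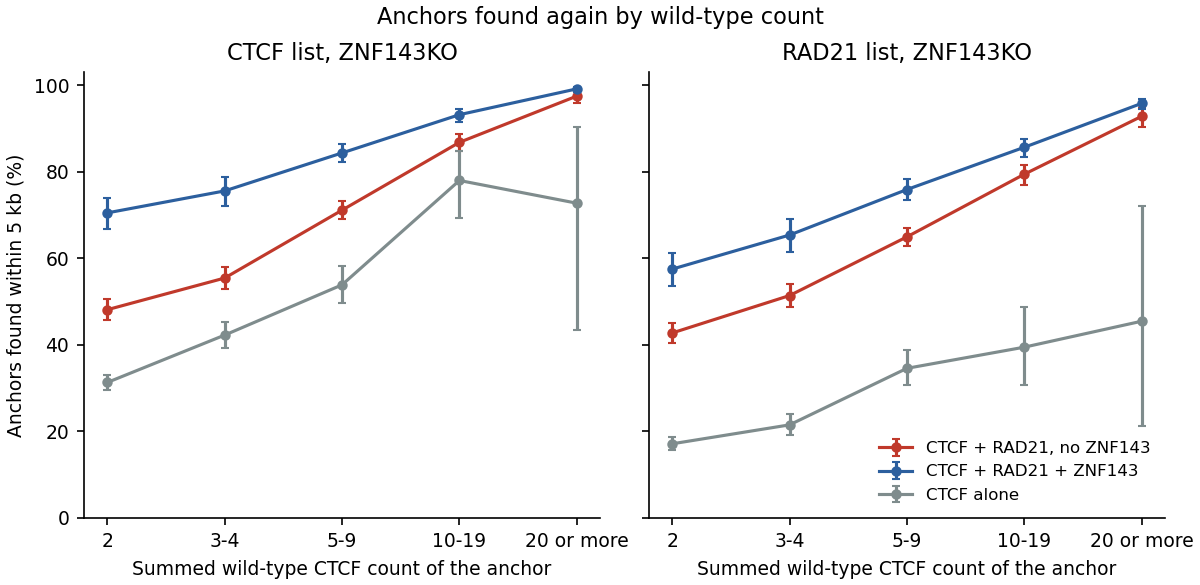
Share of wild-type anchors, in percent, found within 5 kb in the ZNF143KO CTCF list (left) and RAD21 list (right), by the summed wild-type CTCF count of the anchor. Points are shares with 95% Wilson intervals for CTCF-RAD21 anchors (red), triple anchors (blue) and CTCF-alone anchors (grey, 11 anchors in the class of 20 or more). Red rises from 48.1% to 97.5% on the left and from 42.7% to 92.8% on the right.

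The CTCF-RAD21 anchors were not alike among themselves. Those with a ZNF143 anchor in CTCF-AID cells at 0 h were found in the ZNF143KO CTCF list in 75.4% of cases (73.9 to 76.8, of 3427) and those without one in 58.1% (56.4 to 59.8, of 3236). Their median summed counts were 6 and 4. Within the count classes the first group was still higher, by 11.0 points (8.95 to 13.0) in the CTCF list and by 9.47 points (7.28 to 11.7) in the RAD21 list. The classes match counts coarsely, since the medians of the 2 groups were 29 and 25 in the class of 20 or more. Nearness to ZNF143 went the same way. Among anchors with a gap of 5 to 10 kb to a wild-type ZNF143 anchor 77.2% (72.5 to 81.2) were found in the ZNF143KO CTCF list, at 20 to 50 kb 72.9% (69.9 to 75.7), and beyond 250 kb, where 2880 of the anchors lay, 61.5% (59.7 to 63.2). For RAD21 the shares at the ends of this range were 68.0% (63.0 to 72.6) and 57.3% (55.5 to 59.1). The median summed count was 6 up to 20 kb and 5 beyond. The mean was 9.365 at 5 to 10 kb, 9.75 at 10 to 20 kb and 7.91 beyond 250 kb. The part of the count in the trend was not tested.

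**Figure D3:**
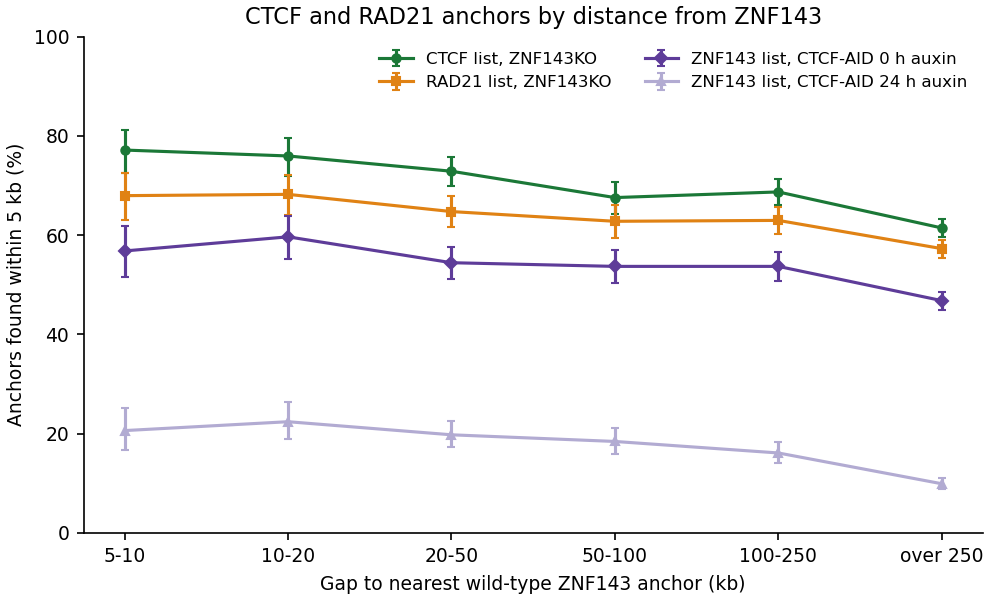
Share of the 6663 CTCF-RAD21 anchors, in percent, with an anchor of another list within 5 kb, by the gap in kb to the nearest wild-type ZNF143 anchor. Points carry 95% Wilson intervals. All 4 lists have their lowest share beyond 250 kb, from 61.5% in the ZNF143KO CTCF list to 9.90% in the ZNF143 list after 24 h of auxin.

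In the wild-type CTCF list 10413 loops had at least 1 CTCF-RAD21 anchor. Their other end was a CTCF-RAD21 anchor in 3948 loops (37.9%), a triple anchor in 4011 (38.5%), a CTCF-alone anchor in 2163 (20.8%) and an anchor with ZNF143 and without RAD21 in 291 (2.79%). Counted by loop ends, since a loop between 2 such anchors has 2, 7896 of the 14361 ends at CTCF-RAD21 anchors (55.0%) had another CTCF-RAD21 anchor at the far side and 4011 (27.9%) a triple anchor. The 3948 loops with both ends at CTCF-RAD21 anchors made up 20.4% of all CTCF loops and 20.3% of the total count. Their counts had a median of 3, a mean of 4.14 and a highest value of 127, and 263 of them (6.66%) had a count of at least 10, close to the 6.71% of all CTCF loops and below the 13.9% of the 5140 loops between triple anchors. They were also longer. Their median span, the distance between anchor midpoints, was 193.8 kb (quartiles 92.2 and 371.0 kb), against 168.8 kb for loops from a CTCF-RAD21 to a triple anchor, 137.4 kb between triple anchors and 153.8 kb over all CTCF loops.

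The same loops were commonly seen with both antibodies. Of the 3948, 2808 (71.1%) were also listed for RAD21 in wild-type cells, against 46.4% of all CTCF loops. The rule itself raises this share by asking for a RAD21 anchor, and loops between triple anchors, which have RAD21 too, had 69.4% (68.1 to 70.7). In these 2808 loops the RAD21 count was higher than the CTCF count in 1199, equal in 723 and lower in 886, with a median ratio of 1.00 (quartiles 0.75 and 1.50). Counts of the 2 antibodies had a Spearman rho of 0.51 across these loops. This is a description, since loops share anchors and both counts depend on span and listed depth. The RAD21 count is the highest of any RAD21 loop within 5 kb, so several CTCF loops can share the same RAD21 loop. A loop with a CTCF count of 3, for example, carried the same RAD21 count of 145 as the loop with a CTCF count of 127. Such matches can raise the RAD21 count, and their part in the ratio and in rho was not tested.

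Without ZNF143, 1498 of the 3948 CTCF loops (37.9%, 36.4 to 39.5) between CTCF-RAD21 anchors were found again, against 39.1% of all CTCF loops. A loop was called found when both of its anchors had a gap of at most 5 kb to those of 1 loop in the other list. The share was 42.5% (41.0 to 44.1) for loops from a CTCF-RAD21 to a triple anchor, 58.5% (57.1 to 59.8) between triple anchors and 16.8% (15.3 to 18.5) for loops from a CTCF-RAD21 to a CTCF-alone anchor. Among the 3849 RAD21 loops between CTCF-RAD21 anchors 34.8% (33.3 to 36.3) were found, against 34.1% of all RAD21 loops, 38.1% (36.5 to 39.7) for loops to a triple anchor and 51.3% (49.8 to 52.8) between triple anchors. Loops between CTCF-RAD21 anchors therefore stood near the shares of all loops. The difference from loops between triple anchors was -20.5 points (-22.5 to -18.5) with the CTCF antibody and -16.5 points (-18.6 to -14.4) with the RAD21 antibody. These differences depend on how loops are matched, because 1 ZNF143KO loop can lie within 5 kb of several wild-type loops. When each ZNF143KO loop was matched to the strongest such wild-type loop only, an alternative chosen after seeing the data, 33.8% (32.3 to 35.3) of the CTCF loops between CTCF-RAD21 anchors were found, against 33.4% of all loops and 47.0% (45.6 to 48.3) between triple anchors, a difference of -13.2 points (-15.2 to -11.2). For RAD21 loops the difference was then -10.2 points (-12.3 to -8.15).

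With matching to any loop within 5 kb, the share was lower than between triple anchors in every count class below 20. At a count of 2, 24.1% (22.2 to 26.2) of CTCF loops between CTCF-RAD21 anchors were found, against 24.2% of all CTCF loops and 38.4% (36.2 to 40.7) between triple anchors. At 5 to 9 the shares were 55.0% (51.3 to 58.6) and 72.9% (70.2 to 75.5), with 62.8% over all loops. At 10 to 19 they were 80.8% (75.1 to 85.5) and 91.8% (89.0 to 93.9), with 87.0% over all loops. At 20 or more the intervals overlapped, with 43 of 44 loops (97.7%, 88.2 to 99.6) and 216 of 218 (99.1%, 96.7 to 99.7). Weighted to the same 5 classes of count and 5 classes of span, the difference between the 2 kinds of loop was -12.7 points (-14.7 to -10.8) with the CTCF antibody and -10.3 points (-12.4 to -8.31) with the RAD21 antibody. When anchors had to overlap to match, the weighted CTCF difference was -8.08 points (-9.96 to -6.20). When each ZNF143KO loop was matched to 1 wild-type loop, it was -5.87 points (-7.75 to -3.99), and the weighted RAD21 difference was -4.19 points (-6.12 to -2.25). With that matching, in the class of 10 to 19 the CTCF shares of 78.1% (72.2 to 83.0) and 84.5% (81.1 to 87.4) had overlapping intervals. At 20 or more the order turned, with overlapping intervals, to 97.7% (88.2 to 99.6) and 93.1% (89.0 to 95.8) for CTCF and to 93.9% (85.4 to 97.6) and 93.5% (89.4 to 96.1) for RAD21. Against loops with 1 CTCF-RAD21 and 1 triple anchor the weighted difference was -3.72 points (-5.71 to -1.72) and -3.25 points (-5.26 to -1.23). With matching to 1 loop it was -2.30 points (-4.23 to -0.361) and -1.97 points (-3.91 to -0.0313). Triple anchors also had to be listed in the wild-type ZNF143 library, and the part of that selection in these differences was not tested.

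**Figure D4:**
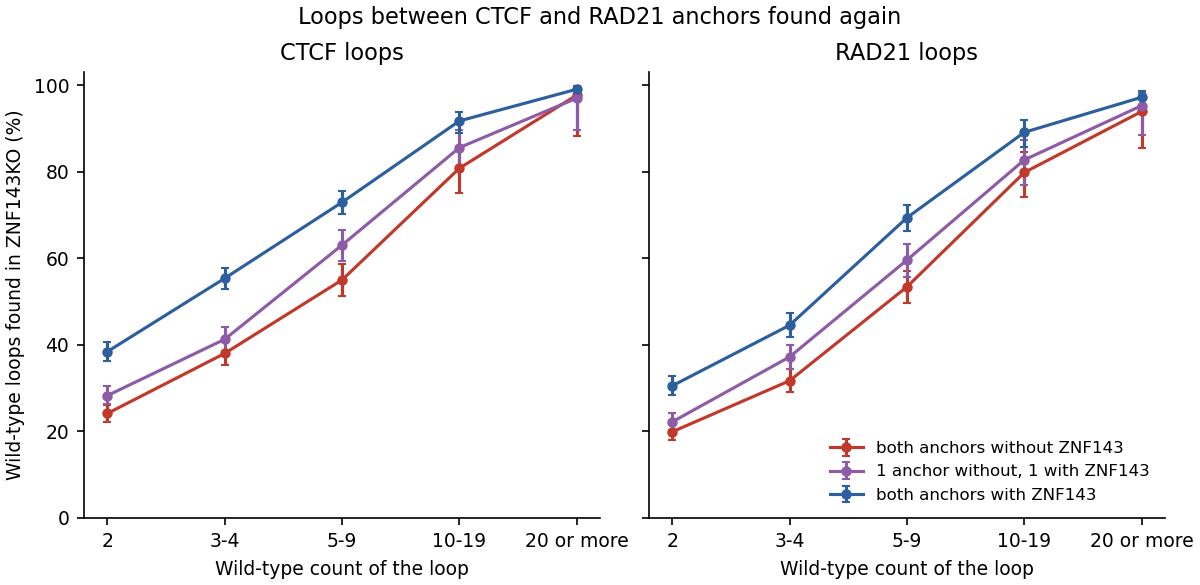
Share of wild-type CTCF loops (left) and RAD21 loops (right), in percent, found in ZNF143KO cells with the same antibody, by the wild-type count of the loop. Points are shares with 95% Wilson intervals for loops with both ends at CTCF-RAD21 anchors (red), 1 such end and 1 triple anchor (purple), and both ends at triple anchors (blue). On the left red runs from 24.1% to 97.7% and lies below blue in each class, with overlapping intervals at 20 or more. A ZNF143KO loop could match several wild-type loops here, and with matching to 1 loop the order at 20 or more is reversed.

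Long loops were found again least often between CTCF-RAD21 anchors, as over all loops. For CTCF the share was 48.6% (44.0 to 53.2) at spans of 20 to 50 kb, 42.0% (38.9 to 45.1) at 100 to 200 kb and 19.6% (16.7 to 22.9) at 500 kb to 2 Mb. All CTCF loops had 52.5%, 41.8% and 18.2% in these classes. For RAD21 the highest share was at 100 to 200 kb (41.4%, 38.2 to 44.6), with 31.7% (27.4 to 36.4) at 20 to 50 kb and 23.5% (20.4 to 27.0) at 500 kb to 2 Mb, while all RAD21 loops had 38.05%, 38.3% and 20.3% in the same order. The longest class thus had the lowest share with both antibodies, while the shares of the shortest classes differed between them, at 48.6% and 48.4% (44.5 to 52.3) for 20 to 50 and 50 to 100 kb with CTCF and 31.7% and 39.6% (35.8 to 43.5) with RAD21. CTCF loops that were found again had a median span of 149.5 kb and those not found 225.1 kb, against 115.8 and 184.8 kb over all CTCF loops.

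A loop could go missing while its anchors remained. Of the 2450 CTCF loops between CTCF-RAD21 anchors that were not found, 884 (36.1%, 34.2 to 38.0) had both anchors still listed in ZNF143KO cells in other loops, 1129 (46.1%) had 1 and 437 (17.8%) had none. Over all missing CTCF loops 42.4% had both anchors listed, 45.1% had 1 and 12.5% none, and between triple anchors 73.3% (71.4 to 75.1) had both. For RAD21 the share with both anchors listed was 29.8% (28.0 to 31.6) of 2510 missing loops at CTCF-RAD21 anchors, 33.2% over all missing RAD21 loops and 58.1% (56.0 to 60.2) at triple anchors. Of the 2808 loops listed with both antibodies in wild-type cells, 737 (26.2%) were found with both in ZNF143KO cells, 543 (19.3%) with CTCF alone, 471 (16.8%) with RAD21 alone and 1057 (37.6%, 35.9 to 39.4) with neither. Over all loops listed with both antibodies 37.0% were found with both, 20.25% with CTCF alone, 14.2% with RAD21 alone and 28.6% (27.7 to 29.5) with neither. Between triple anchors 49.0% were found with both and 19.4% (18.2 to 20.8) with neither.

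Counted afresh in the ZNF143KO lists, loops between CTCF-RAD21 anchors numbered 1934 for CTCF and 1668 for RAD21, which is 0.49 and 0.433 times their wild-type numbers. The ratios were 0.747 and 0.621 between triple anchors and 0.808 and 0.644 over all loops. The kinds of anchor were defined on the wild-type CTCF list, so loops at other anchors belong to none of them and their shares can be lower there by construction. In ZNF143KO cells 1679 of the 6752 CTCF loops with a CTCF-RAD21 anchor (24.9%) ended at such another place. Loops between CTCF-RAD21 anchors held 20.3% of the total CTCF count in wild-type and 12.9% in ZNF143KO cells, a ratio of 0.639 (0.621 to 0.656). The ratio was below 1 for the other kinds too, at 0.748 for loops from a CTCF-RAD21 to a triple anchor and 0.836 between triple anchors. Among loops that joined CTCF-RAD21 and triple anchors only, their share of the count was 25.2% and 21.1% for CTCF and 28.1% and 24.75% for RAD21, while loops between triple anchors held 48.3% and 52.9% for CTCF and 45.3% and 49.7% for RAD21. The median span of loops between CTCF-RAD21 anchors was 158.0 kb in ZNF143KO cells, 0.816 times the wild-type value for CTCF (0.736 to 0.891), and 176.3 kb for RAD21, 0.891 times. Over all loops the ratios were 0.785 and 0.884, so the shorter span was shared with the lists as a whole.

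Some loops between these anchors were listed in ZNF143KO cells and not in wild-type cells with the same antibody. Of the 1934 CTCF loops, 490 (25.3%) were not in the wild-type CTCF list, against 52.9% of all ZNF143KO CTCF loops, and of the 1668 RAD21 loops 386 (23.1%) were not in the wild-type RAD21 list, against 49.1%. These lower shares follow in part from the rule, since both anchors had to be in the wild-type CTCF list, and between triple anchors they were lower still, at 23.3% for CTCF and 20.6% for RAD21. The loops that appeared were weak, with a mean CTCF count of 2.38 and a highest of 7, and their median span was 186.4 kb, against 128.9 kb for all CTCF loops listed in ZNF143KO cells and not in wild-type cells.

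Most strong loops were found again. With matching to any loop within 5 kb their share was lower than over the whole CTCF list. Of the 263 CTCF loops between CTCF-RAD21 anchors with a wild-type count of at least 10, 220 (83.7%, 78.7 to 87.6) were found, against 89.9% (88.1 to 91.4) of all such CTCF loops. The ratio of the ZNF143KO count to the wild-type count had a median of 0.297 (quartiles 0.200 and 0.400), against 0.375 (0.250 and 0.545) for 672 loops between triple anchors. The total CTCF count of the lists had a ratio of 0.573. A higher count in ZNF143KO cells was matched to 32 of 672 loops between triple anchors and to 3 of the 220 between CTCF-RAD21 anchors. For 1 of these 3, on chromosome 5 with counts of 15 and 19, the matched loop was also that of a stronger wild-type loop close by. The higher count is thus not shown to be its own. With each ZNF143KO loop matched to 1 wild-type loop, 214 of the 263 were found with a median ratio of 0.29, 2 of them above 1. Between triple anchors 13 of 623 were then above 1. With that matching the share found was 78.1% at a count of 10 to 19 and 97.7% at 20 or more. Over all CTCF loops it was 81.7% and 94.0%, with overlapping intervals. For RAD21, 248 of 299 such loops (82.9%, 78.3 to 86.8) were found, against 86.3% (84.3 to 88.1) of all such RAD21 loops, with a median ratio of 0.275 (0.200 and 0.400), against a ratio of total counts of 0.450, and 5 of the 248 were matched to a higher count (4 of 243 with matching to 1 loop). Over all loops with a count of at least 10 the medians were 0.333 for CTCF and 0.308 for RAD21, and between triple anchors the RAD21 median was 0.353, so strong loops of each of these kinds lay below the ratio of the list totals. Between triple anchors 18 of 554 RAD21 loops were matched to a higher count (6 of 520 with matching to 1 loop). All these strong loops were chosen for a high wild-type count, and the part of that choice in the ratios was not tested.

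**Figure D5:**
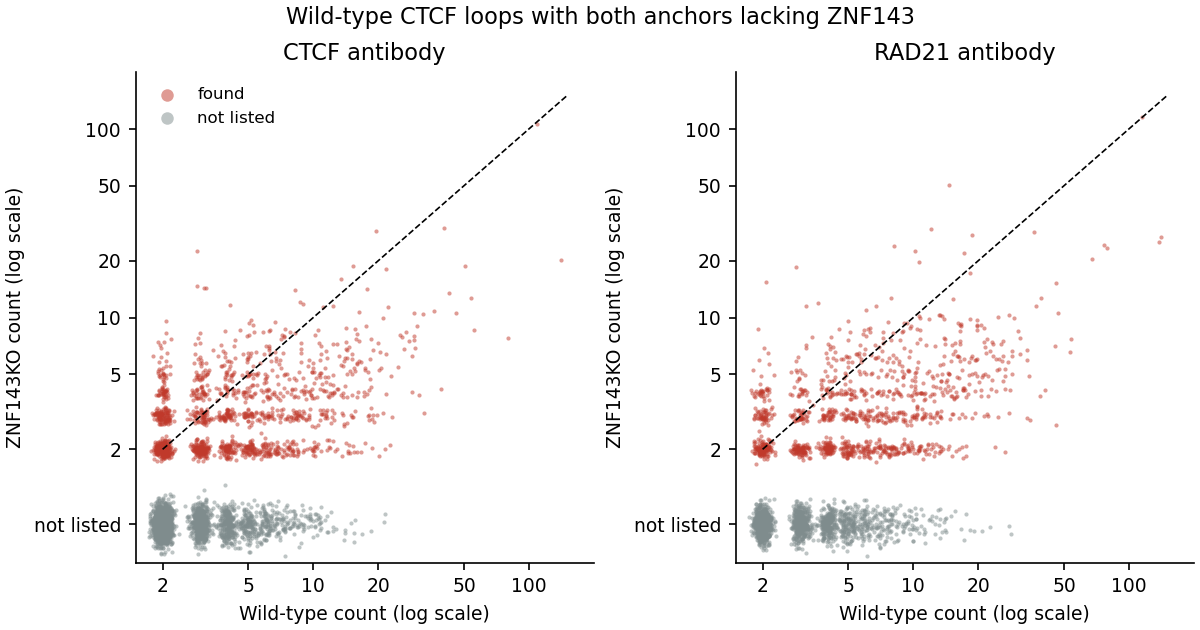
Counts in wild-type (x axis) and ZNF143KO cells (y axis), both on log scales, of the wild-type CTCF loops with both ends at CTCF-RAD21 anchors, for the CTCF antibody (left, 3948 loops) and the RAD21 antibody (right, the 2808 also listed for RAD21). Points are shifted at random by a small amount so that equal counts can be seen. The dashed line marks equal counts, and grey points are loops not listed in ZNF143KO cells. Counts on the right are the highest of any RAD21 loop within 5 kb. On the left, 3 of the 220 listed loops with a wild-type count of 10 or more lie above the dashed line, 1 of them through the match of a stronger neighbour, and the loop with counts of 124 and 102 lies just under it.

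The 5 loops between CTCF-RAD21 anchors with the highest wild-type CTCF count behaved in different ways. The strongest joined chromosome 2, 65144385 to 65145631, to 65266796 to 65268773, a span of 122.8 kb. Its CTCF count was 127 in wild-type and 20 in ZNF143KO cells, and its RAD21 count was 145 and 26. Next was chromosome 1, 161534518 to 161536723, joined to 161615908 to 161618116 over 81.4 kb. Its CTCF count was 124 and 102 and its RAD21 count 117 and 116. In the ZNF143KO cells it was the loop with the highest count of the CTCF list and of the RAD21 list. It stood apart from the other 4 loops, whose CTCF counts in ZNF143KO cells were 0.103 to 0.218 times those in wild-type cells. Neither copy number nor whether reads map uniquely was examined at the anchors of this chromosome 1 loop.

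The loop from chromosome 2, 149873450 to 149874713, to 150169274 to 150171742 spanned 296.4 kb. Its counts were 78 and 8 for CTCF and 49 and 10 for RAD21, the smallest CTCF ratio of the 5. Its anchors had gaps of 3170.6 and 2873.6 kb to the nearest wild-type ZNF143 anchor, the widest of the 5. On chromosome 7, 86940414 to 86942686 was joined to 87044999 to 87048415 over 105.2 kb, with counts of 57 and 9 for CTCF and 53 and 7 for RAD21. On chromosome 14, 75598034 to 75600220 was joined to 75769592 to 75771039 over 171.2 kb, with counts of 55 and 12 for CTCF and 71 and 19 for RAD21. Its anchors were the nearest of the 5 loops to a wild-type ZNF143 anchor, at gaps of 13.0 and 42.8 kb, against 409.6 kb or more for the other loops. In the CTCF-AID lists these 5 loops had ZNF143 counts of 0 to 2, so none was a strong ZNF143 loop there either. Their anchors were not free of ZNF143 loops, since each of the 5 had an end at a ZNF143 anchor of CTCF-AID cells at 0 h. For the strongest loop and the chromosome 14 loop this held for both ends, at 0 h and at 24 h.

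Of the loops that were not found in the ZNF143KO CTCF list, the strongest joined chromosome 8, 23152319 to 23154473, to 23267474 to 23269222 over 115.0 kb. It had a CTCF count of 21 in wild-type cells, and its RAD21 count was 25 in wild-type and 5 in ZNF143KO cells, so it was still listed with the second antibody. Its second anchor was in no loop of the ZNF143KO CTCF list. It also had a ZNF143 count of 5 in CTCF-AID cells at 0 h. The loop from chromosome 11, 127899477 to 127902468, to 128700495 to 128702403 spanned 800.5 kb. Its wild-type counts were 19 for CTCF and 15 for RAD21, and it was listed with neither antibody in ZNF143KO cells, although both its anchors were still anchors of other loops there. The loop from chromosome 1, 59204860 to 59206506, to 60224636 to 60226799 spanned 1020.0 kb, with a wild-type CTCF count of 19 and RAD21 counts of 22 and 3.

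The strongest loops that were listed for CTCF in ZNF143KO cells alone had been seen with RAD21 in wild-type cells. On chromosome 17, 10639732 to 10641466 was joined to 10675232 to 10676579 over 35.3 kb with a ZNF143KO CTCF count of 7, and with RAD21 it was listed at 2 in the wild-type and not at all in the ZNF143KO library. On chromosome 15, 78910232 to 78911513 was joined to 79027460 to 79033938 over 119.8 kb, also with a count of 7, and its RAD21 counts were 5 and 7. On chromosome 2, 68645368 to 68647067 was joined to 68667818 to 68670395 over 22.9 kb with a count of 6, and it had a wild-type RAD21 count of 4. All 3 loops were thus present in the wild-type RAD21 list.

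Some CTCF-RAD21 anchors were hubs. There were 581 anchors (8.72%) with at least 5 CTCF loops in wild-type cells, against 11.1% of all CTCF anchors and 25.5% of triple anchors, and 546 of the 581 (94.0%) were anchors in the ZNF143KO CTCF list, with a median of 6 loops in wild-type and 3 in ZNF143KO cells. Of all CTCF anchors with at least 5 loops 96.8% were found, with medians of 6 and 4, and of triple anchors 98.4%, with medians of 7 and 5. The anchor at chromosome 2, 65144385 to 65145631, which also holds the strongest loop, had 17 CTCF loops with a summed count of 196 in wild-type cells and 7 loops with a summed count of 35 in ZNF143KO cells. Of its 17 loops 11 led to other CTCF-RAD21 anchors and 2 to triple anchors. The anchor at chromosome 3, 194124852 to 194126577, had 17 CTCF loops (summed count 61) and 8 (summed count 23). It had fewer RAD21 loops, 7 in wild-type and 5 in ZNF143KO cells. The anchor at chromosome 1, 110088315 to 110089772, had 16 CTCF loops (summed count 91) and 5 (summed count 17), and 11 of the 16 led to triple anchors. It was also an anchor of 16 ZNF143 loops in CTCF-AID cells at 0 h and of 8 at 24 h, unlike the chromosome 3 anchor, which had 5 and 0.

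As whole loops, those between CTCF-RAD21 anchors were seldom listed for ZNF143. The rule favours this, since both ends had to lie more than 5 kb from every wild-type ZNF143 anchor. Among the 3948, 606 (15.3%, 14.3 to 16.5) matched ZNF143 loops of CTCF-AID cells at 0 h, against 24.7% of all CTCF loops and 46.3% (45.0 to 47.7) of those between triple anchors. At 24 h of auxin, 54 (1.37%, 1.05 to 1.78) were found, against 6.88% of all CTCF loops and 16.5% (15.6 to 17.6) between triple anchors. ZNF143 loops joining 2 CTCF-RAD21 anchors numbered 1097 of 40405 (2.71%) at 0 h and 113 of 20587 (0.549%) at 24 h. Those joining 2 triple anchors numbered 5357 (13.3%) and 2364 (11.5%).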

How the data were processed

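The deposited lists hold, per line, 2 anchors and a whole-number count, taken from the values as supporting read pairs. HiC-Pro and the build hg19 are named in the submitters' processing notes, without a version. The loop caller and filters are not given in the sources used here. The deposited counts start at 2 and are not scaled to depth. Starts were raised by 1.

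Analyses used Python 3.11.15, NumPy 2.4.6 and SciPy 1.17.1. An anchor of any list was assigned to the nearest merged wild-type CTCF anchor within 5 kb. Where several loops matched, the highest count was taken, and 1 ZNF143KO loop could match several wild-type loops. Shares carry 95% Wilson intervals, differences Newcombe intervals, weighted differences intervals from summed binomial variances, ratios of count shares intervals on a log scale, and ratios of medians intervals from order statistics. Code was tested on simulated loops.

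Named regions are the 5 strongest loops between members, the 3 strongest not found in ZNF143KO CTCF, the 3 strongest found there alone, the 3 anchors with most loops, and 4 anchors at the 5 kb limit. Members and comparisons were chosen with earlier results of these data known. Alternatives covered distances of 0 and 10 kb, a minimum count of 3 and a stricter lack of ZNF143.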

Additional observations from a re-analysis of the deposited data

How the results depend on the processing

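Of 69 combinations of a result and an alternative, 27 values stayed within the reported interval (for the number of anchors, within 1.5 times) and 42 moved. A direction exists only for the 26 that concern a difference or a ratio, of which 0 changed sign or side of 1. The cause of a move was not tested unless the alternative itself sets it. Anchors in the ZNF143KO CTCF list, reported at 67.0%, were 65.2% with a rule distance of 10 kb, 63.2% and 69.6% with matching at 0 and 10 kb, 55.9% at a minimum count of 3 and 58.1% for anchors that also lacked a CTCF-AID 0 h ZNF143 anchor. For the RAD21 list, reported at 61.4%, the values were 62.7% and 59.5% with rule distances of 0 and 10 kb, 57.1% and 64.7% with matching at 0 and 10 kb, 52.96% at a minimum count of 3 and 53.3% under the stricter lack of ZNF143. That stricter rule left 3236 anchors in place of 6663, 27.8% of CTCF loops and 28.6% of RAD21 loops found again, differences from triple anchors of -25.4 and, weighted, -17.6 points, a count share ratio of 0.541 and 2.84% of anchors at ZNF143 after 24 h. CTCF loops found again were 33.6% and 41.3% with matching at 0 and 10 kb, and RAD21 loops 30.97% and 38.2%, with 36.7% at a minimum count of 3. The difference from loops between triple anchors was -16.1 points with matching at 0 kb, and the weighted one -10.5 with a rule distance of 0 kb and -8.08 with matching at 0 kb. With each ZNF143KO loop matched to 1 wild-type loop, 33.8% of CTCF and 31.25% of RAD21 loops were found again, and the difference was -13.2 points and, weighted, -5.87. The count share ratio was 0.686 at a minimum count of 3. Anchors at ZNF143 in CTCF-AID 0 h were 53.6% and 49.96% with rule distances of 0 and 10 kb, 45.7% and 56.7% with matching at 0 and 10 kb, 33.7% at a minimum count of 3 and 17.9% at a minimum of 4. At 24 h they were 17.1% with a rule distance of 0 kb, 11.65% and 19.2% with matching at 0 and 10 kb, 9.91% at a minimum count of 3 and 4.74% at a minimum of 4. The minimum of 4 and the matching to 1 loop were chosen after seeing the data. No paired analysis was possible because each group has 1 library. Listed depth limits weak loops: those with a count of 2 or 3 can fall below the listing limit by counting error alone.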

Other observations

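The CTCF-RAD21 anchors were spread unevenly over the chromosomes. They made up 58.0% (52.4 to 63.4) of the CTCF anchors of chromosome X, 54.7% (48.4 to 60.8) of those of chromosome 18, 54.0% (49.1 to 58.8) of chromosome 4 and 53.0% (47.8 to 58.2) of chromosome 13, against 18.65% (16.2 to 21.4) of chromosome 19 and 25.4% (22.7 to 28.2) of chromosome 17. Triple anchors showed the opposite contrast between these sets of chromosomes, with 7.49%, 14.3%, 7.18% and 11.0% on chromosomes X, 18, 4 and 13, and 53.6% and 45.8% on chromosomes 19 and 17. The share of CTCF-RAD21 anchors found in the ZNF143KO CTCF list also differed. It was 53.2% (46.6 to 59.7) on chromosome 4, 53.4% (46.0 to 60.6) on chromosome X and 54.4% (48.5 to 60.2) on chromosome 9, and reached 77.9% (69.4 to 84.5) on chromosome 22 and 76.3% (70.6 to 81.2) on chromosome 17. All CTCF anchors also differed between these chromosomes, with 41.1%, 43.0% and 54.1% found on chromosomes 4, X and 9 and 71.0% and 76.2% on chromosomes 22 and 17. For RAD21 the order was not the same: chromosome 22 had 50.4% (49.1% of all CTCF anchors) and chromosome 18, at 56.0% for CTCF, had 66.4% (53.5% of all). Copy number was not measured, and these shares are descriptions of 1 library each.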
